A study of Mus musculus with 9 samples.

Results

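Lin28a, Lin28b, Nr6a1, Gdf11 and Hmga2 are genes known for setting when the embryo stops making trunk and starts making tail. They were taken by symbol from a table of 24736 mouse genes, in which all 5 were found, and were measured in caudal epiblast-like cells (CEpiLCs), a culture counterpart of the posterior progenitors of the body axis. Mouse embryonic stem cells were grown on feeder fibroblasts, which were then separated by plating. They were cultured in N2/B27 with bFGF at 10 ng per ml and LGK974, an inhibitor of WNT secretion, at 5 uM, and the GSK3 inhibitor CHIR99021, which activates WNT signalling, was added for the last part of the culture, up to 72 h (day 3). There were 3 genotypes with 3 biological replicates each, namely wild type (WT, the XY HM1 TetON line), cells labelled Cdx1/2/4-/- (CdxKO) and cells labelled T/Bra-/- (T/BraKO). All 9 cultures received the same factors. The labels name 1 line for each genotype and no second clone, so a mutation and the line that carries it cannot be told apart. Poly(A) RNA was sequenced, and the values below are expected counts scaled by a size factor for each library (normalised counts) unless TPM is named.

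LIN28A and LIN28B are RNA-binding proteins that hold back the let-7 family of microRNAs, which otherwise silence growth genes such as Hmga2, an architectural chromatin protein. NR6A1 is an orphan nuclear receptor that shuts off pluripotency genes and is required for trunk development. GDF11 is a secreted TGF-beta family ligand that acts through activin receptors and SMAD proteins to end the trunk and begin the tail. Hoxb9, a posterior trunk Hox gene, is given beside them as a reference for axial level. In CdxKO it is no independent gauge, because the paper reports altered occupancy beside Hoxb9 in these mutant cells. Both the transcription factor SOX2 and the WNT effector β-catenin were reduced there. The level of Hoxb9 in CdxKO cannot be told apart from the mutation itself.

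LIN28 proteins and Hmga2 are joined through let-7, so mature let-7 sequences are shown, 5′ to 3′, with the seed (bases 2 to 8) in capitals. Sequences and positions are those of RefSeq on GRCm38.p6. All 12 let-7 and miR-98 precursor genes in the table were matched, and their 9 distinct mature 5p sequences share this seed.

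mmu-let-7a-5p: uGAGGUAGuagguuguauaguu

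mmu-let-7g-5p: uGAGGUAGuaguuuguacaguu

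mmu-miR-98-5p: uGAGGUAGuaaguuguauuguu

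LIN28 proteins are known to bind GGAG in the terminal loop of let-7 precursors. The letters GGAG occur after the mature 5p sequence in 9 of the 12 hairpins. A hairpin that holds them (capitals) and one that does not are given for comparison. Mirlet7g lies at chr9:106178840-106178927 on the plus strand and Mirlet7b at chr15:85707319-85707403 on the plus strand.

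Mirlet7g: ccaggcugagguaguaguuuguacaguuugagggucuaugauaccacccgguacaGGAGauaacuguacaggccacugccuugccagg

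Mirlet7b: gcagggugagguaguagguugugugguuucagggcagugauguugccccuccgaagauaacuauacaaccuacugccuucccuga

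Poly(A) libraries do not measure mature microRNAs. Of the 12 precursor genes, 11 had no count in any library, and all of them together had 2 counts, so let-7 itself was not measured here.

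Libraries held 25124337 to 34705355 expected counts, and no replicate pair agreed within sampling noise. T, the gene targeted in T/BraKO, stood at 12243 ± 2181 normalised counts in WT (mean ± SD, n = 3) and at 2295 ± 563 in T/BraKO. Cdx4 had at most 2 counts in a CdxKO library, while Cdx1 and Cdx2 transcripts persisted there at 272 ± 68.7 and 1031 ± 515 normalised counts, against 536 ± 90.7 and 4199 ± 1740 in WT. Which part of each gene the mutations remove was not examined here. All 8 caudal epiblast markers (T, Cdx1, Cdx2, Cdx4, Nkx1-2, Fgf8, Wnt3a, Wnt8a) were above the floor of 3 counts in at least 1 library, with a summed level of 26318 to 32651 in WT, 15296 to 30151 in CdxKO and 18810 to 28184 in T/BraKO. With genotype as the only term 5 of the 8 were lower in CdxKO than in WT (Cdx1, Cdx2, Cdx4, Wnt3a and Wnt8a) and 3 were lower in T/BraKO (T, Fgf8 and Wnt3a), beside 0.693% and 1.08% of all genes called in either direction. These counts include the targeted genes themselves. With the replicate number as a further term, 7 were lower in CdxKO, beside 5.31% of all genes called in either direction. In T/BraKO 3 were then lower and 3 higher, beside 9.68%. Cdx1 and Cdx2 were among the higher, at 0.69 and 0.37 on the log2 scale with genotype alone and 0.68 and 0.37 with this term. CdxKO libraries also lacked the Y-linked gene Ddx3y, with 0 normalised counts in all of them against 1664 to 1769 in WT and 2117 to 2754 in T/BraKO. This difference between the lines goes with the CdxKO genotype in every comparison below, and its part in the results cannot be told apart.

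Levels between genes were compared per length, as TPM. In WT, Lin28a was the highest member at 520 ± 28.8 TPM (mean ± SD, n = 3), followed by Nr6a1 at 115 ± 26.0, Hmga2 at 79.6 ± 26.6, Lin28b at 65.9 ± 8.86 and Gdf11 at 6.75 ± 1.66. The range of Hmga2, 53.9 to 107 TPM, overlapped with those of both its neighbours, Nr6a1 at 92.1 to 143 and Lin28b at 60.0 to 76.0, so only the place of Hmga2 in this order was within the spread. Lin28a lay above and Gdf11 below all of these. All 5 were far above the floor, the lowest value being 269 expected counts for Gdf11 in CdxKO replicate 3.

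Lin28a (GRCm38, chr4:134003330-134018841, minus strand) stood at 26829, 23800 and 25880 normalised counts in replicates 1, 2 and 3 of WT. The CdxKO libraries held 20774, 22099 and 21302, and those of T/BraKO 29491, 24730 and 30610, in the same order. All CdxKO libraries lay below all others, whereas WT and T/BraKO overlapped. Lin28b (chr10:45376620-45486395, minus strand), its paralogue, stood at 5799, 4646 and 4693 in WT, with 4928, 4308 and 4243 for CdxKO and 5975, 5187 and 5082 for T/BraKO. The CdxKO libraries of Lin28b lay below all those of T/BraKO but overlapped with WT, because CdxKO replicate 1 exceeded WT replicates 2 and 3. Hmga2 (chr10:120361275-120476469, minus strand), a let-7 target, stood at 5579, 2787 and 4178 in WT, with 6049, 3495 and 4328 for CdxKO and 5381, 3598 and 4500 for T/BraKO. The genotypes of Hmga2 overlapped in every pair, and its replicate 1 was the highest and replicate 2 the lowest in each genotype.

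Nr6a1 (chr2:38723370-38927688, minus strand) stood at 12405, 7868 and 9712 normalised counts in WT, with 9366, 9566 and 7859 for CdxKO and 13174, 10389 and 10247 for T/BraKO. CdxKO lay below T/BraKO in all libraries and overlapped with WT, whose replicate 2 was as low as CdxKO replicate 3. Gdf11 (chr10:128882295-128891718, minus strand) stood at 712, 452 and 515 in WT, with 347, 326 and 253 for CdxKO and 794, 491 and 480 for T/BraKO. The highest CdxKO library for Gdf11 was below the lowest library of either other genotype. Each of these genes is protein-coding, and every expected count of the 5 was a whole number. In the annotation, Nr6a1 holds Mir181a-2 and Mir181b-2 on its opposite strand, both with 0 counts, and Hmga2 holds 9230105E05Rik on the opposite strand and Mir763 on its own, with 0 to 1 count in a library. Other overlapping transcripts (for Nr6a1 Nr6a1os, for Lin28a Gm13061, for Hmga2 1700006J14Rik) were not used here, and the counting was strand-specific.

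**Figure D1:**
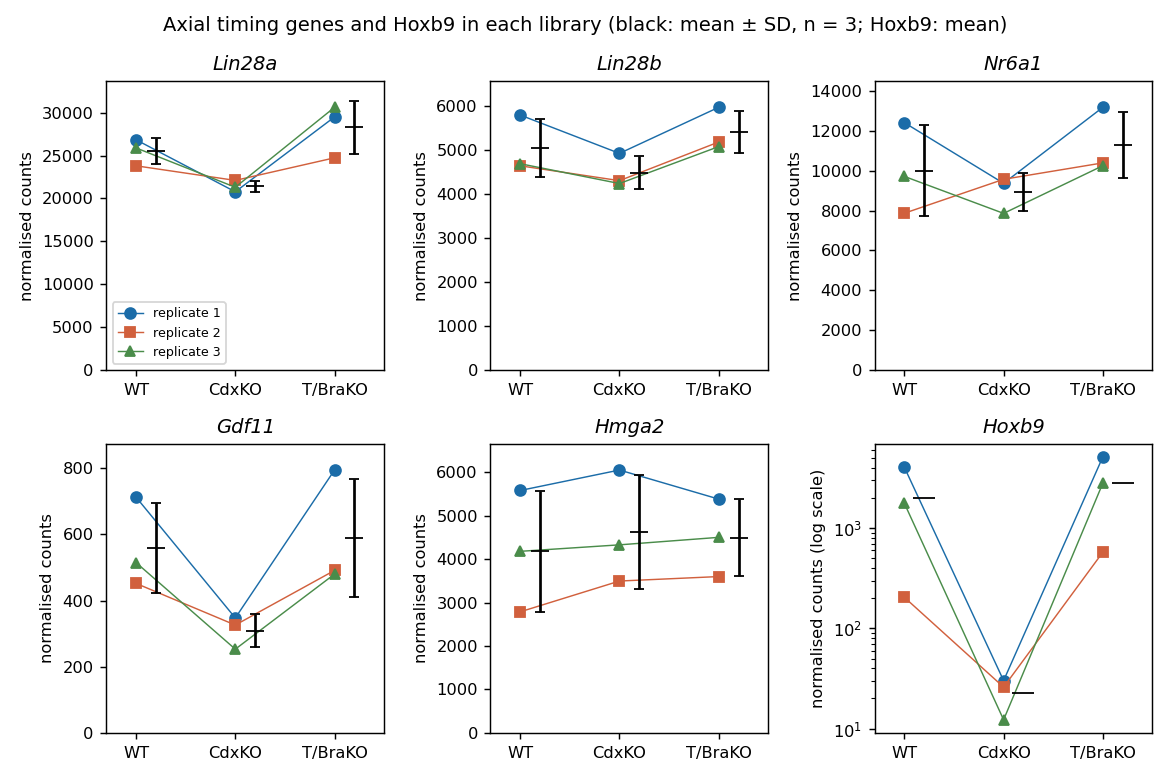
Normalised counts (vertical axis, starting at 0 except for the log axis of Hoxb9) of each axial timing gene and Hoxb9 in the 3 genotypes, with libraries of the same replicate number joined by a line and the mean ± SD of 3 libraries in black (mean only for Hoxb9). The 3 CdxKO libraries lie lowest for Gdf11 (253 to 347) and Lin28a (20774 to 22099), and Hmga2 is ordered by replicate number rather than by genotype.

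The comparison of CdxKO with WT asked whether the timing genes depend on the CDX factors, which drive posterior identity. Gdf11 was 1.79-fold lower and Lin28a 1.19-fold lower in CdxKO. Over all 9 libraries these calls were made with the replicate number in the model and not with genotype alone, while in the 6 WT and CdxKO libraries genotype alone called Gdf11 (-0.86 on the log2 scale, adjusted p 0.0201). Lin28b, Nr6a1 and Hmga2 were not called. A gene was called at a Benjamini-Hochberg adjusted p of at most 0.05 over all genes in DESeq2. With genotype as the only term 0 of 5 members were called (2 had an unadjusted p of at most 0.05), beside 0.693% of all genes tested, and edgeR also called 0 (2 at that unadjusted p), beside 0.11%. Libraries with the same replicate number deviated together, so the number was added as a block, which called 2 of 5, both lower, beside 1.91% of genes called lower and 5.31% called in either direction. Gdf11 had an adjusted p of 0.0969 in the genotype-only model, where its log2 fold change was -0.86 (SE 0.25, 95% interval -1.36 to -0.36). With the block it was -0.84 (SE 0.14, -1.11 to -0.57), with an adjusted p of 1.55e-07. In the same way Lin28a moved from -0.25 (SE 0.10, adjusted p 0.561) to -0.25 (SE 0.07, adjusted p 0.00573). EdgeR with the block called 1 of 5, Gdf11 (adjusted p 0.0057), beside 1.73% of genes called lower, and gave Lin28a an adjusted p of 0.0598.

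Within each replicate number the direction of these genes could be read directly. The log2 ratio of CdxKO to WT for Gdf11 was -1.04, -0.47 and -1.02 in replicates 1, 2 and 3, and for Lin28a it was -0.37, -0.11 and -0.28. Lin28b was also lower in 3 of 3 numbers, at -0.23, -0.11 and -0.15, but its blocked adjusted p was 0.0571 (log2 fold change -0.16, SE 0.06). Nr6a1 was lower in replicates 1 and 3 (-0.41 and -0.31) and higher in replicate 2 (0.28), and its blocked interval ran from -0.46 to 0.17. Hmga2 had ratios of 0.12, 0.33 and 0.05, with a blocked log2 fold change of 0.16 (95% interval 0.01 to 0.31) and an adjusted p of 0.25. CdxKO and WT did not overlap for Gdf11 and Lin28a, as was the case for 4.58% of all genes in that direction. The blocked call of Lin28a was lost without any WT library (replicates 1, 2 or 3) and without CdxKO replicate 1 or 3, with values of -0.22, -0.26, -0.27, -0.19 and -0.21 on the log2 scale and, in that order, adjusted p of 0.29, 0.0883, 0.0696, 0.287 and 0.164. Without WT replicate 2 or CdxKO replicate 2 Nr6a1 was called (log2 fold changes -0.30 and -0.30, adjusted p 0.0234 and 0.00872). Without T/BraKO replicate 2, which enters through the shared spread, Lin28b was called (-0.16, adjusted p 0.0297). Gdf11 was called with the block whichever library was left out, at -1.01 to -0.72, and without T/BraKO replicate 1 it was called with genotype alone too (-0.86, adjusted p 0.0136).

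Hoxb9 (chr11:96271457-96276595, plus strand) fell much further. Its normalised counts were 4057, 204 and 1772 in WT against 30.1, 25.9 and 12.2 for CdxKO. This was a difference of -6.47 on the log2 scale (SE 1.09, adjusted p 2.14e-06), although edgeR did not call it without the block (adjusted p 0.238). The smallest gap in the same replicate number was that of replicate 2, at -2.98 on the log2 scale. Replicate 2 also had the smallest gap for Gdf11, Lin28a and Lin28b, and the highest ratio of CdxKO to WT for Nr6a1 (0.28) and Hmga2 (0.33). WT replicate 2 was the lowest WT library for Hoxb9 and for all 5 members, so this pattern was not particular to the called genes.

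Loss of T, the T-box factor needed for posterior mesoderm, was examined in the same way, by setting T/BraKO against WT. No member was called. DESeq2 called 0 of 5 with genotype alone, beside 1.08% of all genes, and 0 of 5 with the block, beside 9.68%. At an unadjusted p of at most 0.05 there were 0 members with genotype alone and 1 (Lin28a) with the block. EdgeR called 0 with either model, beside 0.385% and 9.5% of genes, with 0 and 1 (Lin28b) at that unadjusted p. Blocked log2 fold changes were 0.15 for Lin28a (95% interval 0.02 to 0.28), 0.11 for Lin28b (-0.00 to 0.21), 0.18 for Nr6a1 (-0.13 to 0.49), 0.06 for Gdf11 (-0.20 to 0.32) and 0.14 for Hmga2 (-0.01 to 0.29). Hoxb9 had 5157, 576 and 2816 normalised counts in T/BraKO, with a blocked log2 fold change of 0.67 (SE 0.90) and an adjusted p of 0.734. Lin28a, Lin28b and Nr6a1 were higher in T/BraKO in 3 of 3 replicate numbers, and so was Hoxb9. Leaving out T/BraKO replicate 2 made Lin28a a blocked call (log2 fold change 0.22, adjusted p 0.0109).

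The mutants were also compared with each other, which does not use the WT libraries for the difference itself. Gdf11 and Lin28a were called lower in CdxKO, and with the block so was Lin28b. DESeq2 called 2 of 5 with genotype alone, both lower, beside 0.962% of genes called lower. The log2 fold change was -0.93 for Gdf11 (SE 0.25, adjusted p 0.0106) and -0.40 for Lin28a (SE 0.10, adjusted p 0.00473). With the block there were 3 of 5, beside 6.9%, the additional gene being Lin28b at -0.27 (SE 0.06, adjusted p 3.18e-05). Lin28b was 17.0% lower in CdxKO, and its log2 ratios in the same number, -0.28, -0.27 and -0.26, were close to each other. Nr6a1 was at -0.32 (SE 0.16, adjusted p 0.178), and was called with the block without WT replicate 2, without CdxKO replicate 2 and in the 6 libraries compared (-0.33, SE 0.08, adjusted p 0.00125 in the last, chosen after the values were seen). Hmga2 was at 0.02 (SE 0.07, adjusted p 0.906). All but Hmga2 had CdxKO libraries wholly below those of T/BraKO, as did 6.92% of genes.

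These calls rested on few libraries where the replicate number was left out of the model. Without CdxKO replicate 3 or T/BraKO replicate 1, 0 members were called (adjusted p for Gdf11 0.116 and 0.168, for Lin28a 0.0531 and 0.0954), and without CdxKO replicate 1 or T/BraKO replicate 3 only Gdf11 was (adjusted p for Lin28a 0.0812 and 0.0797). EdgeR without the block called 0 (3 at an unadjusted p of at most 0.05), beside 1.63% of genes, and with the block it called the same 3 as DESeq2, beside 8.52% called lower.

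**Figure D2:**
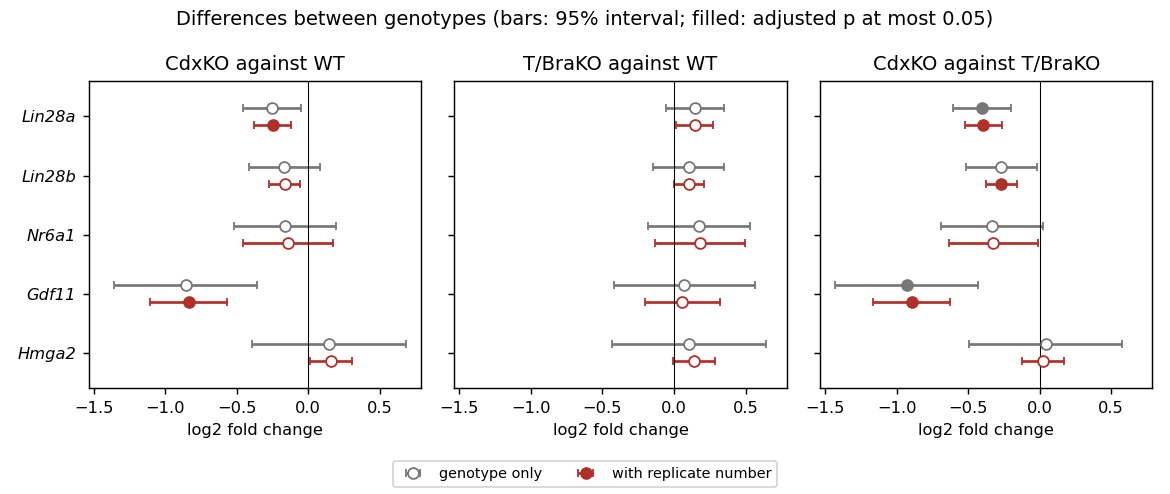
Log2 fold changes (horizontal axis) of the 5 genes in the 3 comparisons, with 95% intervals, from the model with genotype only (grey) and with the replicate number added (red). Filled points passed an adjusted p of 0.05: Gdf11 and Lin28a with the block in CdxKO against WT, none in T/BraKO against WT, and Gdf11, Lin28a and with the block Lin28b in CdxKO against T/BraKO.

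Replicate number was examined next, because Hoxb9 varied 19.9-fold between WT replicates. Hmga2, Lin28b and Gdf11 differed between replicate numbers, with replicate 1 the highest in each genotype. In a model with genotype, the likelihood ratio test of DESeq2 called 3 of 5 members, beside 47.9% of all genes, so a call was common here. Between pairs of numbers, 16.6% of genes were called higher in replicate 1 than in 2, 21.8% in 3 than in 2 and 9.17% in 1 than in 3. Hoxb9 was not called by the likelihood ratio test of DESeq2 over the 9 libraries (adjusted p 0.13), but edgeR called it (adjusted p 1.20e-04), and in DESeq2 replicate 1 was higher than replicate 2 by 2.33 on the log2 scale (SE 0.91, adjusted p 0.0369). Hmga2 had the largest difference, with means over the genotypes of 5670, 3293 and 4335 normalised counts in replicates 1, 2 and 3. Replicate 1 exceeded replicate 2 by 0.79 on the log2 scale (SE 0.07, adjusted p 2.05e-23) and replicate 3 exceeded replicate 2 by 0.40 (SE 0.07, adjusted p 7.00e-07). The order 1, 3, 2 held for Hmga2 in all 3 genotypes, CdxKO included, which was true of 2.93% of 12316 genes with a mean of at least 50 normalised counts.

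Gdf11 and Lin28b had another pattern, in which replicate 1 stood apart from the others over the genotypes together. For Gdf11 this did not hold within CdxKO, where replicates 1, 2 and 3 had 347, 326 and 253 normalised counts. Gdf11 was higher in replicate 1 than in replicate 2 by 0.49 (SE 0.13, adjusted p 0.0019) and than in replicate 3 by 0.56 (SE 0.14, adjusted p 6.58e-04), both on the log2 scale. For Lin28b these differences were 0.24 (SE 0.06, adjusted p 1.55e-04) and 0.25 (SE 0.06, adjusted p 1.24e-04). Replicate 1 was the highest in all genotypes for Hmga2, Lin28b and Gdf11, as for 8.81% of genes. Without T/BraKO replicate 1 Gdf11 was not called for the number (log2 differences 0.39 and 0.45, adjusted p 0.0887 and 0.0737). Lin28a and Nr6a1 were not called (adjusted p 0.123 to 0.933 for Lin28a and 0.121 to 0.973 for Nr6a1 over the pairs of numbers), although edgeR called Nr6a1 too, beside 56.0% of genes. With the CdxKO libraries left out, a choice made after the values were seen, all 5 were called, beside 31.8% of genes.

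**Figure D3:**
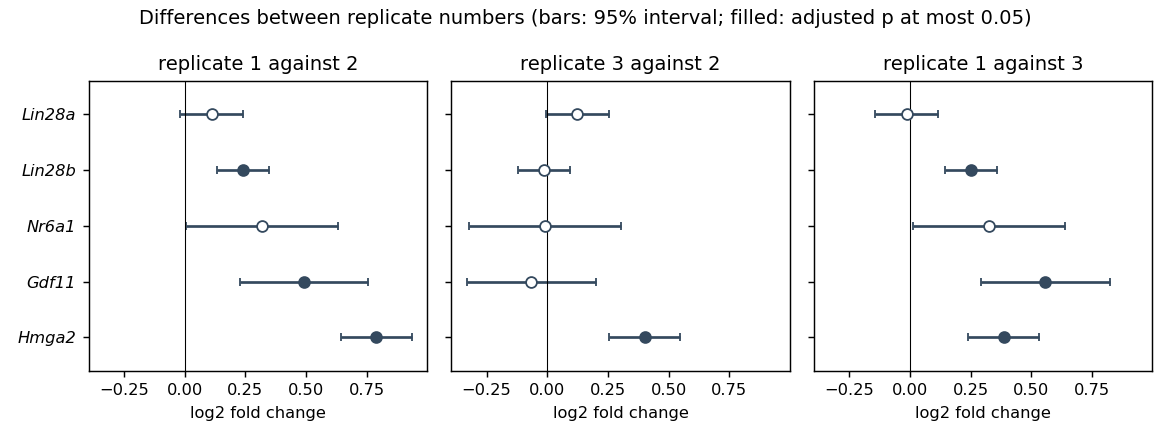
Log2 fold changes (horizontal axis) between replicate numbers, with 95% intervals, from DESeq2 with genotype in the model and all 9 libraries. Filled points passed an adjusted p of 0.05: Hmga2 differed in all 3 pairs of numbers, and Gdf11 and Lin28b in both pairs that include replicate 1.

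Set beside Hoxb9 library by library, the timing genes spanned far narrower ranges. In WT and T/BraKO, Hoxb9 fell in the order T/BraKO replicate 1, WT replicate 1, T/BraKO replicate 3, WT replicate 3, T/BraKO replicate 2 and WT replicate 2, from 5157 to 204 normalised counts. Hmga2 followed the same order over these 6 libraries but for its first pair, which was exchanged. The share of all genes with such an order was not counted, and libraries of the same replicate number deviated together. WT replicate 2 was the lowest of the 6 for 5 of 5 members, as for 29.3% of genes, and replicates 1 of both genotypes were the highest pair for 4 of 5, all but Lin28a, as for 7.95% of genes. Over the same 6 libraries the log2 difference between replicates 1 and 2 was 3.71 (SE 0.41) for Hoxb9, 0.79 (SE 0.10) for Hmga2, 0.67 (SE 0.15) for Gdf11, 0.49 (SE 0.09) for Nr6a1, 0.26 (SE 0.08) for Lin28b and 0.21 (SE 0.07) for Lin28a.

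CdxKO set the genes apart from each other. Hoxb9 was at 12.2 to 30.1 normalised counts in these libraries, lower than in any other, whereas Hmga2 reached 6049 in CdxKO replicate 1, its highest value of the 9. Gdf11 and Lin28a were also lowest in CdxKO, where the level of Hoxb9 cannot be told apart from the mutation itself. No correlation with Hoxb9 over the 9 libraries is given, since CdxKO formed a separate group and libraries of the same number were not independent.

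**Figure D4:**
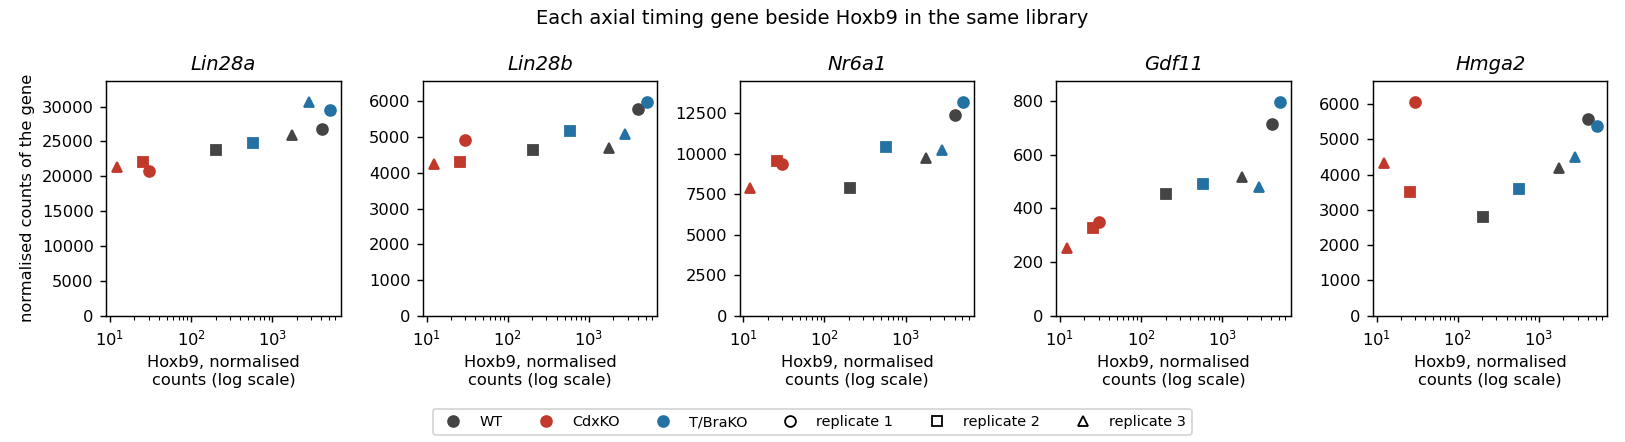
Normalised counts of each timing gene (vertical axis, from 0) against Hoxb9 in the same library (horizontal axis, log scale), with colour for genotype and symbol for replicate number. The 3 CdxKO libraries lie to the left, at 12.2 to 30.1 for Hoxb9, low for Gdf11 and Lin28a and within the range of the others for Hmga2 save replicate 1.

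The promoter of Gdf11, the member with the largest difference in CdxKO, is shown because CDX proteins are known to bind TTTATNG-like letters. The window is the 250 bases before the RefSeq start, chr10:128891719-128891968 on GRCm38.p6, written 5′ to 3′ on the minus strand that Gdf11 is read from, with the match to TTTATNG in capitals, here on the opposite strand.

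Gdf11: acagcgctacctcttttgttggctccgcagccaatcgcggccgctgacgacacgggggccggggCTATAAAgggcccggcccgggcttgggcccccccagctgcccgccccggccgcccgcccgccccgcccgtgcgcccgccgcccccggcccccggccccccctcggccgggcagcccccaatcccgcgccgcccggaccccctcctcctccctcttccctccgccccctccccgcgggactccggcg

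The match lies 180 bases before the start, and its letters overlap TATAAA, the letters of a TATA box. Whether they act as one at this distance was not tested. TTTATNG, searched on both strands, was found in 9.81% of 32851 promoter windows of this length, and TATAAA in 12.4%. The windows of Lin28a, Lin28b, Nr6a1 and Hmga2 held neither. No binding was measured in these libraries.

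Genes around the members were read by role, from lists of the pathway and without any test of the list. The 10 genes of LIN28 and let-7 processing changed little. In CdxKO against WT the genotype-only model called 0 of 10, and the block called 1 lower, beside 1.91% of all genes, namely Zcchc11 (TUT4, which adds uridines to pre-let-7 with LIN28A), with an adjusted p of 0.0487 (log2 fold change -0.17, SE 0.06). Over the 13855 genes tested the median was -0.00, and the median of the list was -0.05. In T/BraKO the block called Tarbp2, a Dicer partner, higher at 0.28 (SE 0.09, adjusted p 0.0179). Between the mutants it called Dgcr8 and Xpo5, which act in microRNA cropping and nuclear export, lower in CdxKO at -0.23 and -0.15 (adjusted p 0.0339 and 0.0448).

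Of 16 known let-7 targets other than Hmga2, 0 were called in either mutant against WT with genotype alone. With the block 3 of 16 were lower in CdxKO, beside 1.91% of all genes. Mycn, a growth-promoting transcription factor, stood at 1467 ± 492 normalised counts in WT, with 872 ± 278 for CdxKO and 1751 ± 597 for T/BraKO. Its log2 fold change in CdxKO was -0.74 (SE 0.08), with an adjusted p of 1.03e-16 (0.75 with genotype alone). Igf2bp2, an mRNA-binding protein, was at -0.32 (SE 0.07, adjusted p 9.50e-05) and Arid3b at -0.24 (SE 0.06, adjusted p 0.0053). The median over the list was -0.02. In T/BraKO, with the block, the targets that rose included Mycn (0.25), Ccnd1 (0.26) and Cdc25a (0.16) and 2 fell (Arid3b -0.41 and Igf2bp3 -0.18), all on the log2 scale, beside 9.68% of all genes called in either direction, with a median of 0.08. Between the mutants Igf2bp2 was called lower in CdxKO with genotype alone (-0.44, SE 0.13, adjusted p 0.0243) and Mycn with the block (-0.99, SE 0.08, adjusted p 1.66e-31). The direction of Mycn and Igf2bp2 was that of Lin28a in both comparisons of CdxKO, while Hmga2, on the same pathway, was not called. Igf2bp1 had the highest mean of the list in WT, 245 ± 19.6 TPM, which overlapped with that of Hmga1, 243 ± 36.1, and it was not called in any comparison.

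The 20 genes of GDF11 signalling included processing enzymes, receptors, inhibitors and SMAD proteins. Mstn, the closest relative of Gdf11, had 0 counts in all libraries. The receptors Acvr2a and Acvr2b were expressed at 13.7 ± 1.09 and 44.6 ± 6.85 TPM in WT and were not called in any comparison. In CdxKO against WT, 0 of 19 tested were called with genotype alone, and the block called 4 of 17, all higher, beside 3.4% of genes called higher. Bmp1, a protease that releases GDF11 from its latent complex, rose from 1009 ± 229 normalised counts in WT to 1384 ± 246 (0.47 on the log2 scale, SE 0.11, adjusted p 0.00161). Furin, which cleaves the precursors of this family, was at 0.36 (SE 0.10, adjusted p 0.00975). The inhibitors Fstl3 and Smad7 were at 1.39 (SE 0.43, adjusted p 0.0316) and 0.77 (SE 0.21, adjusted p 0.01), both from low levels in WT, 17.4 ± 6.49 and 107 ± 4.33. Pcsk5, another protease that acts on GDF11, had 52.9 ± 20.2 in WT and 28.3 ± 2.55 in CdxKO and was not called.

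Isl1, a transcription factor known as a target of GDF11 in the hindlimb field, was called in T/BraKO. Its level was 50.7 ± 5.91 normalised counts in WT, against 5.61 ± 3.69 for T/BraKO and 102 ± 44.5 for CdxKO. With genotype alone it was called lower in T/BraKO against WT (-3.15 on the log2 scale, SE 0.54, adjusted p 2.45e-06) and higher in CdxKO against T/BraKO (4.15, SE 0.54, adjusted p 4.28e-12), while Gdf11 was at 0.07 and -0.93 in the same comparisons. It was the only gene of this list called in T/BraKO against WT. Between the mutants the block also called Bmp1, Furin, Fst and Snai1 higher in CdxKO (log2 fold changes 0.56, 0.42, 0.40 and 0.54). Their adjusted p values in DESeq2 were 2.24e-05, 4.88e-04, 0.0318 and 0.0200. Smad4 was called lower (-0.17, adjusted p 0.0197), beside 6.9% of all genes called lower in this comparison, so a lower call was common. The share of all genes called higher is not given here, so how common the higher calls were cannot be read.

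Of 6 genes that NR6A1 is known to repress or that stay on without it, 0 were called with genotype alone in any comparison. With the block Pou5f1, the pluripotency factor OCT4, was higher in CdxKO than in WT by 0.22 (SE 0.07, adjusted p 0.0219) and in T/BraKO by 0.55 (SE 0.07, adjusted p 3.01e-14). Fgf4 was lower in both (-1.27 and -1.36, adjusted p 0.0123 and 0.00371) and Tdgf1 was higher in T/BraKO (0.70, adjusted p 0.00246), so that 2 of 6 were called in CdxKO and 3 of 6 in T/BraKO, beside 5.31% and 9.68% of all genes. Between the mutants Pou5f1 and Tdgf1 were lower in CdxKO (-0.33 and -0.61). Nr6a1 itself was not called in these comparisons. In the posterior Hox genes of groups 10 to 13, which follow in the tail, 7 of 12 were at or under the floor of 3 counts in all libraries. All 12 summed to 17.4 to 25.9 normalised counts in WT, with 17.6 to 27.3 for CdxKO and 32.3 to 50.4 for T/BraKO, and none was called among the 5, 10 and 3 that could be tested in the 3 comparisons with genotype alone, or the 0, 0 and 2 with the block.

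**Figure D5:**
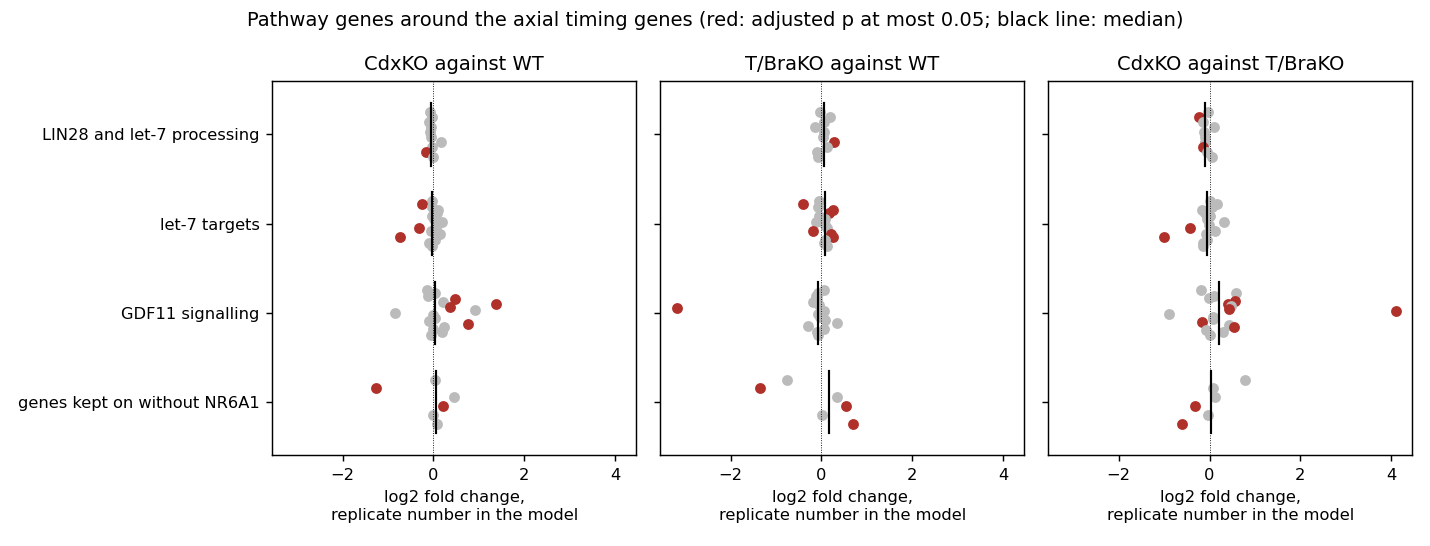
Log2 fold changes (horizontal axis) of the genes in 4 lists, from the model with the replicate number, for each comparison. Red points passed an adjusted p of 0.05 and the black line is the median of the list: most points lie near 0, and the largest values are those of Isl1 in both comparisons with T/BraKO.

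Markers of other cells moved with genotype as well. The 6 markers of feeder fibroblasts (Col1a1, Col1a2, Col3a1, Postn, Dcn, Lum) summed to 1307 to 2793 normalised counts in WT, 2277 to 4836 in CdxKO and 897 to 1738 in T/BraKO. With the block Col1a1 and Col1a2 were higher in CdxKO than in WT (0.94 and 0.43 on the log2 scale) and lower in T/BraKO (-0.96 and -0.81), where Postn was also lower (-2.48). Between the mutants all of these were higher in CdxKO with genotype alone (1.91, 1.26 and 3.89). Col3a1, Dcn and Lum were not called, and their blocked values had either sign: Col3a1 was at -0.32 in CdxKO and Dcn at 0.74 in T/BraKO, both against WT. Paraxial mesoderm markers summed to 296 to 552 in WT, 173 to 698 in CdxKO and 68.7 to 82.5 in T/BraKO, where Msgn1 and Tbx6 were lower than in WT. The summed levels of epiblast, naive pluripotency, neural and definitive endoderm markers overlapped between all genotypes, but single markers were called against WT. Klf4, a naive marker, was higher in CdxKO with genotype alone (0.62, adjusted p 0.0267). With the block the epiblast marker Pou5f1 was higher in both mutants, as given above, and in T/BraKO so were Dnmt3b (0.36, adjusted p 3.10e-09), another epiblast marker, and the naive marker Tfcp2l1 (0.30, adjusted p 0.0215). The neural marker Irx3 was lower in CdxKO (-1.09, adjusted p 5.63e-05) and T/BraKO (-0.84, adjusted p 0.00258), and the endoderm marker Foxa2 in T/BraKO (-1.40, adjusted p 0.0187). The part of all these markers in the differences of Gdf11, Lin28a, Lin28b, Bmp1 and Isl1 was not tested. Because these are bulk cultures, fewer cells that express a gene and less of its RNA in each cell cannot be told apart.

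For each member, the 3 genes whose levels were most like it over the 9 libraries were taken from the 12316 genes, by Pearson's r of log2(normalised count + 1), as a description only, since these libraries share genotypes and replicate numbers. For Gdf11 they were Tmem132c (r = 0.988), Hoxb4 (0.969) and Lrp3 (0.965). Those of Lin28a were Camkv (0.986), Actr5 (0.984) and Sall4 (0.972), and those of Lin28b were Sin3a (0.981), Mospd1 (0.978) and Bcl9 (0.978). Nr6a1 was most like Tubgcp6 (0.940), Sos1 (0.929) and Pclaf (0.928), and Hmga2 was most like Pafah1b2 (0.988), Pcsk7 (0.978) and Adgra3 (0.977). After removing the group means, 1 of the 3 was shared with these for Nr6a1 (Sos1) and for Hmga2 (Pafah1b2), and 0 for the others.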

How the data were processed

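Poly(A) RNA from 9 cultures was read by the authors in a strand-specific, single-end run, trimmed with cutadapt 1.16, and quantified with STAR 2.5.2a and RSEM 1.3.0 on mm10 RefSeq genes. The authors deposited expected counts, which are RSEM estimates that need not be whole, and TPM, scaled for transcript length. Groups and replicate numbers come from the library titles.

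The deposited expected counts were rounded and analysed in R 4.3.3 with DESeq2 1.42.0 (Wald test, genotype as the only term, all 9 libraries), the tool named in the study's methods, with edgeR 4.0.16 as an alternative. TPM was used for levels only. Other alternatives were TMM factors, a filter of 10 counts in 3 libraries, the 6 libraries compared, the replicate block and leaving out each library. Over 12316 genes, deviations from group means correlated at 0.703 on average (0.532 to 0.814) between the 9 same-numbered pairs. The numbers, which come from the titles, were therefore taken to pair the samples. The 18 other pairs averaged -0.340, which largely follows from centring on the group means and is no separate support. Named genes are the members, Hoxb9, the targeted genes, the 6 genes of a list with the smallest adjusted p among its calls, the 3 genes most like a member, and overlapping genes; a let-7 target among them is not reported here. Ddx3y, Pcsk5 and the receptors were named after their values were seen. Members and lists were chosen with earlier results of these data known. Coordinates are from GENCODE on GRCm38, the assembly of mm10. The floor of 3 counts (0.0864 to 0.119 CPM) covers counting error only. The scripts were tested on simulated data.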

Additional observations from a re-analysis of the deposited data

Results flagged for a closer look

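The difference of each mutant from WT was compared between the mutants, which is the direct contrast of CdxKO with T/BraKO, since both are set against the same WT libraries. It passed an adjusted p of 0.05 by DESeq2 for Gdf11, the tail-inducing ligand, with a log2 fold change of -0.93, and for Lin28a, the let-7 inhibitor, with -0.40. Gdf11 was lower in CdxKO in 3 of 3 replicate numbers, at -1.19, -0.59 and -0.92 on the log2 scale, and Lin28a at -0.51, -0.16 and -0.52. Over the alternatives that left out a library, values ran from -1.07 to -0.65 for Gdf11 and from -0.49 to -0.34 for Lin28a. Lin28b passed only with the replicate block. EdgeR with genotype alone called neither Gdf11 (adjusted p 0.137) nor Lin28a (adjusted p 0.0640). With 1 library left out, DESeq2 with genotype alone called 0 to 2 members.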

How the results depend on the processing

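The count of members called in CdxKO against WT, 0 in the genotype-only model, was 2 with the replicate block, 1 with edgeR and the block, 1 in the 6 libraries compared and 2 in those with the block (an alternative added after the data were seen), and 0 to 3 when 1 library was left out. In T/BraKO against WT it was 0 to 1 when 1 library was left out. In CdxKO against T/BraKO, 2 became 0 with edgeR and 4 in the 6 libraries with the block, and 0 to 4 with 1 library left out. For the replicate number, 3 became 1 with no genotype term, 5 in WT and T/BraKO alone (also added after the data were seen), and 2 to 5 with 1 library left out. TMM factors and the filter on low counts left these counts within 1.5 times of the main ones. The block changed the calls of Gdf11, Lin28a and Lin28b named above, and no other call of a member.

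Log2 fold changes changed sign only for genes that were not called. With 1 library left out they ran, in CdxKO against WT, from -0.31 to 0.0238 for Nr6a1 and from -0.10 to 0.41 for Hmga2. In T/BraKO against WT they ran from -0.20 to 0.28 for Gdf11 (down to -0.0411 and -0.0445 with the block), from -0.12 to 0.37 for Hmga2 and from -0.25 to 1.53 for Hoxb9. In CdxKO against T/BraKO Hmga2 ran from -0.20 to 0.21 (down to -0.00182 and -0.0604 with the block). Between replicates 3 and 2 the range was -0.0402 to 0.00126 for Lin28b, -0.16 to 0.15 for Nr6a1 and -0.18 to 0.10 for Gdf11, and between replicates 1 and 3 it was -0.0518 to 0.0441 for Lin28a. In WT and T/BraKO alone, replicate 3 against 2 was 0.14 for Nr6a1 and 0.0761 for Gdf11, against -0.01 and -0.07 over all libraries. In the CdxKO libraries replicate 2 lay above replicate 3 for both genes, at 9566 against 7859 normalised counts for Nr6a1 and 326 against 253 for Gdf11. Why CdxKO had this order was not tested. By CPM, which is not scaled for length, Lin28b ranked 3 and Hmga2 4 in WT.

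With 3 libraries a group, genotype-only 95% intervals of Lin28b, Nr6a1 and Hmga2 are wide enough for changes of either sign against WT in both mutants. In T/BraKO against WT this also holds for Lin28a (-0.05 to 0.35) and Gdf11 (-0.42 to 0.57). Gdf11, with 253 to 794 normalised counts, is the least deeply counted member.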
